A study of Mus musculus with 7 samples.

Results

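The 10 apolipoprotein genes named next were followed through all cells of the series: Apoa1, Apoa2, Apoa4, Apob, Apoc1, Apoc2, Apoc3, Apoc4, Apoe and Apoh. These 10 members were listed by name, with earlier results of these data known, and all 10 are among the 32285 genes counted in each of 7 libraries. The libraries are droplet-based 3' single-cell RNA-seq of mouse liver tissue, in which each transcript carries a unique molecular identifier (UMI). The study describes C57BL/6J mice that carry Alb-Cre, a Cre recombinase driven by the albumin enhancer and promoter, and CAG-Myc, a human c-MYC transgene behind a floxed STOP cassette. Such ABC-Myc mice develop liver tumors that resemble hepatoblastoma, an embryonal liver cancer of young children, and the transgene is switched on wherever albumin drives Cre. NEJ634, NEJ687, NEJ709 and NEJ723 are the tumors the study names, and NEJ638, NEJ654 and NEJ677 are taken here as its 3 healthy livers. ABC-Myc mice carry 1 copy of each transgene, and the study's normal controls are littermates that lack Alb-Cre, CAG-MYC or both. Which of these genotypes each healthy library has, and the ages of the mice, are not given in the sources used here. GEO's labels give no groups and describe all 7 as a murine hepatoblastoma model, and the description of NEJ709 names NEJ634. The 2 sets are therefore only placed side by side, with the value of each library and without a test, mean or error over libraries. Intervals in parentheses are exact 95% Poisson intervals for UMI counts and exact Clopper-Pearson intervals for shares of cells, and they cover counting error only.

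Apolipoproteins are the protein part of the particles that carry lipid through blood. Apob is the structural protein on which the liver builds very-low-density lipoproteins, and Apoa1 and Apoa2 are the main proteins of high-density lipoproteins. Apoe is a ligand of receptors that clear lipoprotein remnants, and it is made by hepatocytes and by macrophages. Apoc2 is the cofactor that activates lipoprotein lipase, whereas Apoc3 inhibits that enzyme and slows remnant clearance. Apoc1 and Apoc4 are small exchangeable proteins, Apoa4 is a lipid-responsive protein of intestine and liver, and Apoh, or beta-2-glycoprotein I, binds phospholipids in plasma.

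Of the members, 7 lie in 2 gene clusters. On chromosome 7 (GENCODE M21 annotation, GRCm38) Apoc2 (chr7:19671579-19677941), Apoc4 (chr7:19678083-19681479), Apoc1 (chr7:19689481-19692660) and Apoe (chr7:19696109-19699188) follow each other on the minus strand, with 141, 8001 and 3448 bases between neighbours. On chromosome 9 Apoa1 (chr9:46228580-46230466) and Apoa4 (chr9:46240696-46243459) lie on the plus strand, with Apoc3 (chr9:46232933-46235636) between them on the minus strand. Apoa2 (chr1:171225054-171226379), Apob (chr12:7977648-8016835) and Apoh (chr11:108343354-108414396) stand alone. Apoa4 is overlapped by the antisense gene Gm10680, and Apoh by Prkca on the opposite strand and by the sense intronic Gm11656, all of which are counted in the files. The protein-coding gene Gm44805 overlaps both Apoc2 and Apoc4 on their strand in GENCODE but is not counted in the files, so its reads could be counted for either.

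The sequence before the start of 5 of these genes is shown because neighbours within each cluster went opposite ways in the values that follow. The windows are from RefSeq (GRCm38.p6), which held an entry for 8 of the 10 members, and they end where the first of the RefSeq and GENCODE starts begins. Sequences run 5' to 3' on the strand of the gene. Capitals mark AGGTCA, the half-site of nuclear receptors, on either strand, or TATAAA, the letters of the TATA box, on either strand and at any position.
Apoc2 (250 bases, chr7:19677942-19678191, minus strand): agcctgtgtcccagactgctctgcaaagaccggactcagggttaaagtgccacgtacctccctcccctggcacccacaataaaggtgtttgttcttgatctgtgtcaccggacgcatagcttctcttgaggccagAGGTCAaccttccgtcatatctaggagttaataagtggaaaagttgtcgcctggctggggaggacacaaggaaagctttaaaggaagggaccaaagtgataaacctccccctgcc
Apoc4 (231 bases, chr7:19681480-19681710, minus strand): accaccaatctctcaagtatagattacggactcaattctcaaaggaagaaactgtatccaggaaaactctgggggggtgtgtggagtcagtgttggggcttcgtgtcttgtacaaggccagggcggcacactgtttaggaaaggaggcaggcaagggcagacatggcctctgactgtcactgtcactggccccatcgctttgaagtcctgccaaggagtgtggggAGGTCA
Apoe (250 bases, chr7:19699189-19699438, minus strand): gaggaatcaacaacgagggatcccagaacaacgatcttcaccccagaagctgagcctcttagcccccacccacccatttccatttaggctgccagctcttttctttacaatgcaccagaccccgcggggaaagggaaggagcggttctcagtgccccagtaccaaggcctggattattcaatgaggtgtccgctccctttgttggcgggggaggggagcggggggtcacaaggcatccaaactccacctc
Apoa1 (200 bases, chr9:46228380-46228579, plus strand): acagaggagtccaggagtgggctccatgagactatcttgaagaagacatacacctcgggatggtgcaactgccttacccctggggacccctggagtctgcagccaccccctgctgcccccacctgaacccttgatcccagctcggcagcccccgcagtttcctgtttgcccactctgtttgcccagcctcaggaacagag
Apoa4 (102 bases, chr9:46240594-46240695, plus strand): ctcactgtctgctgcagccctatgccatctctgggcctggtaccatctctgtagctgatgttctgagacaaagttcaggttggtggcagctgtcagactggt
Over the 250 bases before a RefSeq start, AGGTCA occurred in at least 1 window of 4 of the 8 members with an entry (Apoa2, Apoc2, Apoc4 and Apoh) and of 15.8% of all 27025 genes with one. Counted by window, it was in 14.0% of 32817 windows. TATAAA occurred in at least 1 window of 3 of the 8 members (Apoa2, Apob and Apoe) and of 14.3% of all genes, and in 12.4% of windows. Genes with several starts have several windows. TATAAA began 212 bases before a RefSeq start for Apoa2, 60 for Apob and 96 and 100 for Apoe. Whether it works as a TATA box there was not tested. For Apoe it lay before an alternative start, so the sequence shown has no capitals. Apoc2 and its neighbour Apoc4 both held AGGTCA, at 115 to 110 and at 25 to 20 bases before the start, and neither Apoa1 nor Apoa4 held either motif.

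Total UMIs were 76988802 to 132485391 in the tumor libraries and 40214395 to 47253154 in the healthy libraries. After cell calling, quality filters and doublet removal, cells were clustered without any of the 37 genes named Apo and named from marker genes, so every class name means cells like that type. Hepatocyte-lineage cells numbered 5904 in NEJ634, 211 in NEJ687, 32 in NEJ709 and 10 in NEJ723, against 306 in NEJ638, 307 in NEJ654 and 134 in NEJ677. Levels are given for classes of at least 20 cells, so NEJ723 has none in these cells. An alternative quoted below set the class of each cell from its own marker UMIs. It gave 999 hepatocyte-lineage cells in NEJ723, 1428 in NEJ654 and 1192 in NEJ677, so it rests on other cells and NEJ723 passed the limit there. All 20 hepatocyte markers were detected in the hepatocyte-lineage cells of each of the 6 remaining libraries, at a summed level of 24371 to 31036 UMIs per 1000000 UMIs (CPM) in the tumor libraries and 101112 to 153131 CPM in the healthy libraries. Macrophage-like cells numbered 3106 in NEJ634, 620 in NEJ687, 70 in NEJ709 and 460 in NEJ723, against 404 in NEJ638, 1300 in NEJ654 and 680 in NEJ677. Pairs of libraries shared 11 to 191 of the barcodes kept as cells. An unnamed cluster of 362 cells, 98.9% of them with barcodes called in another library, carried 15535 to 16047 CPM of Apoe and 711 to 778 CPM of the fetal gene Afp in NEJ654, NEJ677 and NEJ687, and it entered no class.

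The members were first compared in hepatocyte-lineage cells, the main source of plasma apolipoproteins. In all, 8 of the 10 members were lower in each of the 3 tumor libraries than in each of the 3 healthy libraries, against 20.4% of the 7571 genes with a mean of at least 10 CPM. The remaining members, Apoc2 and Apoa4, were higher in each tumor library than in each healthy library, against 33.6% of those genes. The median log2 difference of the members, taken as the median of the tumor libraries minus that of the healthy libraries, was -1.64, and that of all genes compared was 0.28. Together the 10 members made up 2.0% of UMIs in NEJ634, 2.72% in NEJ687 and 2.49% in NEJ709, against 6.32% (NEJ638), 9.17% (NEJ654) and 8.79% (NEJ677). The summed level of erythroid markers in the same cells came to 6830 CPM for NEJ634, 1459 for NEJ687 and 9294 for NEJ709, against 908 to 2408 CPM in the healthy libraries, with overlap. That of neutrophil markers did not overlap, at 6612 CPM for NEJ634, 641 for NEJ687 and 4619 for NEJ709, against 122 to 236 CPM in the healthy libraries. With the low-UMI profile of each library subtracted, the counts were again 8 and 2. The share of UMIs estimated to come from that profile came to 39.2% for NEJ634, 5.15% for NEJ687 and 11.3% for NEJ709, against 12.5% to 19.2% in the healthy libraries. The part of the hepatocyte, erythroid and neutrophil marker levels in these differences was not tested. Tumor cells of the class lay mostly in a cluster led by H19, Igf2 and Afp and healthy cells in a cluster led by Alb and cytochrome P450 genes, so cell state and set cannot be told apart.

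**Figure D1:**
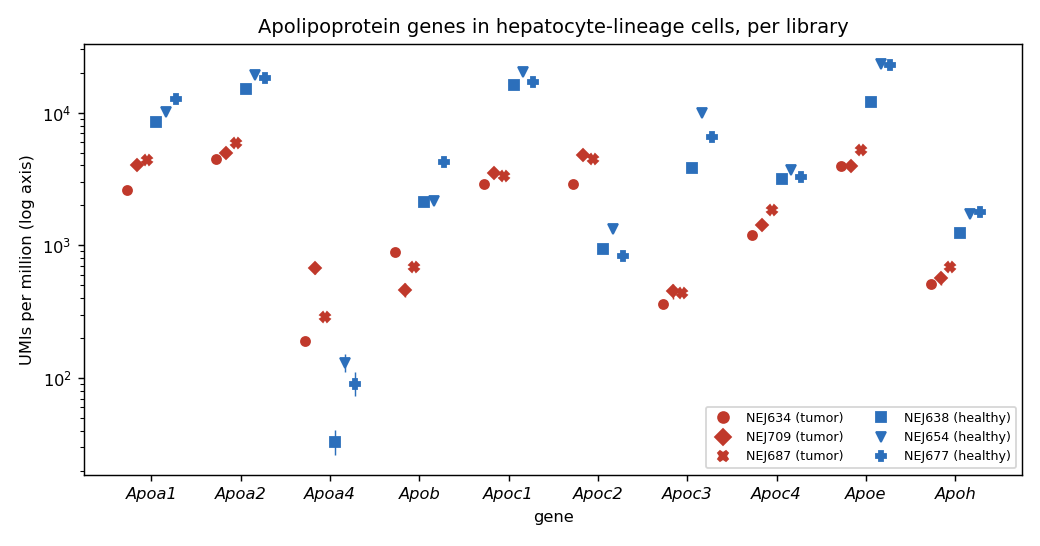
Level of each member in hepatocyte-lineage cells, in CPM on a log axis, with 1 point for each library and exact 95% Poisson intervals. The 3 tumor libraries (red) lie below the 3 healthy libraries (blue) for 8 genes and above them for Apoa4 and Apoc2.

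Among the proteins of high-density lipoprotein, Apoa1 was at 2596 CPM in NEJ634, 4363 in NEJ687 and 4045 in NEJ709, against 8535 in NEJ638, 10069 in NEJ654 and 12673 in NEJ677. Apoa2 was at 4487, 5891 and 4967 CPM in the same tumor libraries and at 15079, 19233 and 18403 CPM in the healthy libraries. The healthy median was 2.49-fold the tumor median for Apoa1 and 3.70-fold for Apoa2, and the sets did not overlap for either gene. Apob, the core protein of very-low-density lipoprotein, was at 898 CPM in NEJ634, 687 in NEJ687 and 461 in NEJ709. It was at 2139 CPM in NEJ638, 2162 in NEJ654 and 4237 in NEJ677, a healthy median 3.14-fold higher. Apoh had 511, 690 and 564 CPM in NEJ634, NEJ687 and NEJ709 and 1230, 1737 and 1775 CPM in NEJ638, NEJ654 and NEJ677, and its sets did not overlap. The log2 difference of Apoh was -0.96 in place of -1.62 with the class of each cell set from its own marker UMIs.

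Apoc3, the inhibitor of lipoprotein lipase, had the widest gap of the 10. It was at 363 CPM (355 to 371) in NEJ634, 438 CPM (418 to 459) in NEJ687 and 451 CPM (397 to 509) in NEJ709. In the healthy libraries it was at 3830 CPM in NEJ638, 9866 in NEJ654 and 6594 in NEJ677, and the healthy median was 15-fold the tumor median (log2 difference -3.91). After thinning each cell to 500 UMIs, 13.4%, 17.1% and 3.12% of hepatocyte-lineage cells held an Apoc3 UMI in NEJ634, NEJ687 and NEJ709, against 79.7%, 84.4% and 80.6% in NEJ638, NEJ654 and NEJ677. Without thinning the shares were 46.9% to 68.2% and 93.2% to 97.8%. T/NK-like cells, which should lack the gene, held it in 0 to 1.14% of thinned cells in the 4 tumor libraries and 4.63% to 14.9% in the healthy libraries, at median depths of 1638 to 7725 UMIs, against 1884 to 16088 UMIs in hepatocyte-lineage cells. The NEJ709 share rests on 1 of 32 cells (0.0791% to 16.2%), against 0 of 49 T/NK-like cells of that library (up to 7.25%). Without thinning, the shares in NEJ709 were 46.9% and 4.08%.

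Apoc2, the activator of the same enzyme, went the other way. It was at 2917 CPM in NEJ634, 4458 in NEJ687 and 4811 in NEJ709, against 942 (NEJ638), 1334 (NEJ654) and 835 (NEJ677) in the healthy libraries. The tumor median was 4.73-fold the healthy median, and the lowest tumor library lay above the highest healthy library. With cells weighted equally, the log2 difference was 1.42 in place of 2.24. The thinned share of cells with an Apoc2 UMI was 64.0%, 82.9% and 46.9% in NEJ634, NEJ687 and NEJ709 and 29.9% to 33.9% in the healthy libraries. In T/NK-like cells it was 0.826% to 10.2% over the 7 libraries.

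The neighbours of Apoc2 did not share its direction. Apoc4, whose 3' end lies 141 bases from the start of Apoc2, was at 1196 CPM in NEJ634, 1856 in NEJ687 and 1416 in NEJ709, against 3173 in NEJ638, 3707 in NEJ654 and 3251 in NEJ677. Apoc1 was at 2888, 3317 and 3509 CPM in those tumor libraries and at 16141, 20280 and 17039 CPM in the healthy libraries. Apoe was at 3994 CPM in NEJ634, 5206 in NEJ687 and 3984 in NEJ709, against 12071 (NEJ638), 23183 (NEJ654) and 22968 (NEJ677) in the healthy libraries. The healthy median was 2.29-fold the tumor median for Apoc4, 5.14-fold for Apoc1 and 5.75-fold for Apoe, so that 3 of the 4 genes of the chromosome 7 cluster were lower and 1 was higher in the tumor libraries.

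The chromosome 9 cluster was split in the same manner. Apoa4 was at 190 CPM (184 to 196) in NEJ634, 288 CPM (272 to 305) in NEJ687 and 679 CPM (613 to 749) in NEJ709. It was at 32.9 CPM (26.2 to 40.8) in NEJ638, 130 CPM (110 to 151) in NEJ654 and 90.7 CPM (73.0 to 111) in NEJ677. The tumor median was 3.15-fold the healthy median, while Apoa1 and Apoc3, on its other side, were lower. The size of this difference varied with the libraries and the class: its log2 value of 1.66 was 2.40 without NEJ634, 2.25 without NEJ687 and 3.99 with the class of each cell set from its own marker UMIs. In alternatives chosen after the data were seen, it was 2.43 with epithelial-like cells added and 3.10 with clusters named from a mean log2 marker fold of 1. Over all alternatives it ran from 1.17 to 3.99, so it was also smaller than 1.66 in some. In NEJ709, the library with the highest Apoa4, 4 of the 32 cells had barcodes called in 2 or more libraries. Apoa5, a further gene of this cluster 25173 bases beyond Apoa4, named here after its values were seen, was at 65.9 to 80.0 CPM in the tumor libraries and 380 to 1156 CPM in the healthy libraries. Apoa4 thus stood between genes that were lower on both of its sides.

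**Figure D2:**
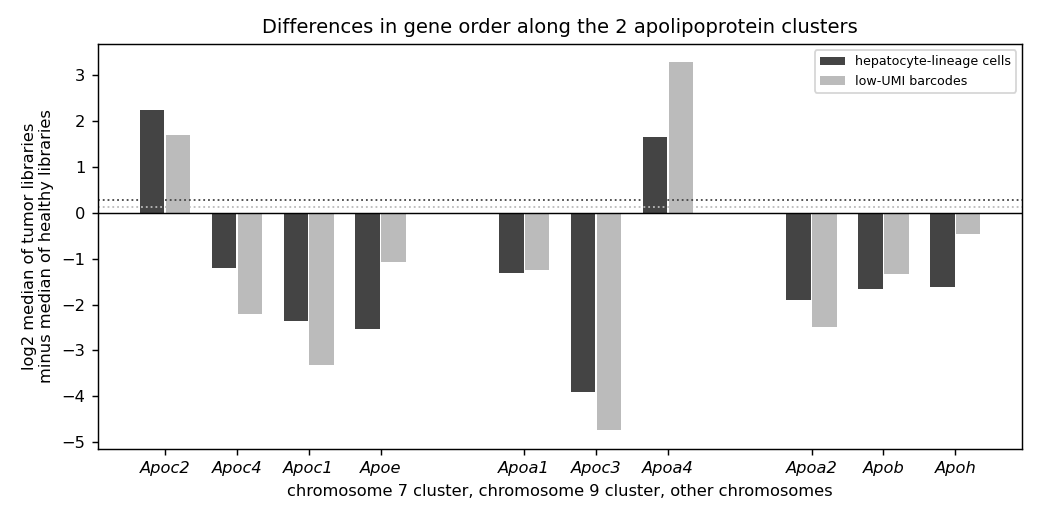
Log2 median of tumor libraries minus log2 median of healthy libraries for each member, in gene order along the chromosome 7 and chromosome 9 clusters, then the 3 members elsewhere, in hepatocyte-lineage cells (dark) and low-UMI barcodes (light). Dotted lines are the medians of all genes compared, 0.28 and 0.13, and only Apoc2 (2.24 in hepatocyte-lineage cells) and Apoa4 (1.66) have bars above 0.

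The 10 hepatocyte-lineage cells of NEJ723, too few for a level under the rule, held 157184 UMIs. They gave 2456 CPM (2217 to 2713) of Apoa4 and 4072 CPM (3762 to 4400) of Apoc2, with 369 CPM (280 to 477) of Apoc3 and 7844 CPM (7413 to 8295) of Apoe. NEJ723 also had 161 epithelial-like cells, a class defined by Epcam and claudins. They held all 20 hepatocyte markers, as did macrophage-like cells of NEJ634, NEJ654, NEJ677, NEJ687 and NEJ709. These markers summed to 15745 CPM in the epithelial-like cells of NEJ723 and 7907 CPM in its low-UMI barcodes. Apoa4 was at 1021 CPM, Apoc2 at 2165 CPM, Apoc3 at 33.2 CPM and Apoe at 4130 CPM in these epithelial-like cells. The 223 epithelial-like cells of NEJ634 gave 214 CPM of Apoa4, 1146 CPM of Apoc2, 90.6 CPM of Apoc3 and 5079 CPM of Apoe. Neutrophil markers in these NEJ634 cells summed to 11694 CPM, against 16395 CPM in its low-UMI barcodes. In epithelial-like cells of both libraries Apoc3 lay below the low-UMI level, at 0.704 to 0.914 times that level. With epithelial-like cells counted as hepatocyte-lineage, which adds NEJ723 to the tumor side, the counts of 8 lower and 2 higher members were the same. The 161 epithelial-like cells of NEJ723 held 10202986 UMIs against 157184 in its 10 hepatocyte-lineage cells, so the added level is mostly theirs. Their median was 55029 UMIs, against 3805 in all kept cells of NEJ723, and 30 of them had barcodes called in 2 or more libraries. Whether they are single cells was not tested.

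NEJ634 held 3 clusters of hepatocyte-lineage cells, which allowed a view within 1 library, given as a description because these clusters were made from the same cells. The larger, of 5755 cells, had 3908 CPM of albumin (Alb) and 2382 CPM of Afp, a cluster of 99 cells had 11941 CPM of Alb and 1430 CPM of Afp, and a cluster of 50 cells had 6275 CPM of Alb and 3730 CPM of Afp. The share of all genes is not given for the comparison of these clusters, so its counts of members have no background beside them. Compared with the larger cluster, the 99 albumin-high cells had the higher level of the same 8 members and the lower level of Apoc2 and Apoa4. Apoc3 was at 1358 CPM there against 336 CPM, Apoc1 at 7050 against 2774 CPM, and Apoe at 7217 against 3892 CPM. Apoa4 was 4.72-fold lower there than its 192 CPM in the larger cluster, and Apoc2 was at 1830 against 2950 CPM. The 50-cell cluster shared this pattern only in some members, although its Alb was also above that of the larger cluster. Its Apoc3 was at 172 CPM (116 to 246), Apoc1 at 2138 CPM and Apoa2 at 3896 CPM, all below the larger cluster, and its Apoa4 was at 431 CPM (339 to 540), above it. Apoc4, at 1006 CPM, was also below it. As in the albumin-high cluster, Apoa1 (4643 CPM), Apoe (5161 CPM) and Apob (1132 CPM) were above the larger cluster and Apoc2 (2672 CPM) was below it, and Apoh was at 511 CPM against 504 CPM. The healthy hepatocyte-lineage cells lay almost wholly in the albumin-high cluster, where Alb was at 41634 to 76214 CPM and Apoc3 at 3830 to 9894 CPM.

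**Figure D3:**
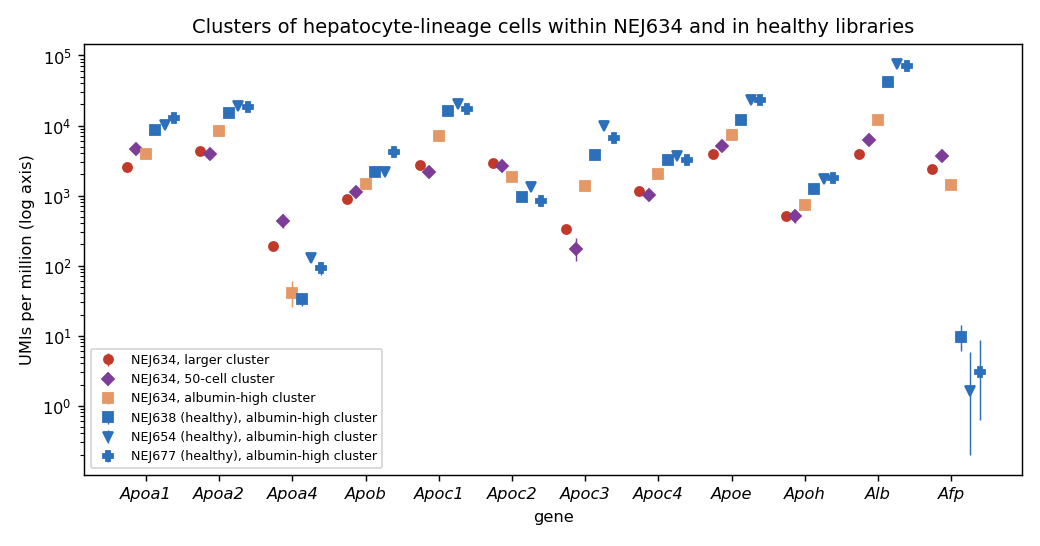
Level of each member, Alb and Afp in the larger, the 50-cell and the albumin-high clusters of NEJ634 and in the albumin-high cluster of the 3 healthy libraries, in CPM on a log axis with exact 95% Poisson intervals. For 8 members the albumin-high cells of NEJ634 lie between its larger cluster and the healthy cells, for Apoc2 as well but in the opposite order, and for Apoa4 they reach the healthy range. The share of all genes with such an order is not given. The 50-cell cluster has the least Apoc3 (172 CPM) and the most Apoa4 (431 CPM).

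A further cluster, left unnamed because its hepatocyte markers were only 1.09 higher on the log2 scale than in other clusters, held 795 cells of NEJ677 and 235 of NEJ654 at median depths of 1628 and 894 UMIs, and 24 cells of the tumor library NEJ687 at 597 UMIs. It was high in some members and low in others. Apoc1 was at 14561 CPM in NEJ677 and 15379 in NEJ654, Apoa2 at 9802 and 10786 CPM, and Apoc3 at 4018 and 5286 CPM. Apoe was at 2076 and 2907 CPM and Apoa1 at 1569 and 1605 CPM, and Alb at 3742 and 4498 CPM. The 24 cells of NEJ687 also had high Apoc1 (10719 CPM), Apoa2 (10719 CPM) and Apoc3 (2918 CPM), with 5895 CPM of Apoe and 1965 CPM of Alb. With a naming limit of 1, chosen after the data were seen, this cluster counted as hepatocyte-lineage. Apoe in that class was then 8620 CPM for NEJ677 and 17592 CPM for NEJ654, and the log2 difference of Apoe between the sets moved from -2.52 to -1.57. The 8 lower and 2 higher members were the same in number. With the class of each cell set from its own marker UMIs, the difference of Apoe was -1.24 and 7 members were lower.

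Macrophage-like cells were compared next. All 14 macrophage markers were detected in these cells in each library, at a summed 12247 to 27481 CPM in the tumor libraries and 21959 to 32675 CPM in the healthy libraries. Apoe was at 8735 CPM in NEJ634, 25066 in NEJ687, 16985 in NEJ709 and 19741 in NEJ723, against 9396 (NEJ638), 22099 (NEJ654) and 21200 (NEJ677) in the healthy libraries. The sets overlapped, and NEJ634 and NEJ638 were the lowest of the 7. Apoc1 was at 2631, 3642, 3708 and 1754 CPM in NEJ634, NEJ687, NEJ709 and NEJ723 and at 2172, 5238 and 5795 CPM in NEJ638, NEJ654 and NEJ677, again with overlap. None of the 10 members was lower in each tumor library than in each healthy library, against 14.0% of 7702 genes. Leaving out NEJ634 made this count 1 and leaving out NEJ638 made it 2, and with only barcodes above the UMI limit 3 members were lower. The share of all genes is not given for these settings, so these counts have no background beside them. Macrophage-like cells of the sets lay mostly in different clusters, tumor cells in 2 clusters with 138 to 1135 CPM of Clec4f, a Kupffer cell gene, and healthy cells in another with 3044 to 4364 CPM, so cell state and set cannot be told apart here either. An unnamed cluster of 216 cells in NEJ638, 221 in NEJ654 and 234 in NEJ677 also held Clec4f, at 1780 to 2856 CPM, and was not in this class. Apoe in that cluster was at 5740, 14006 and 14085 CPM, below the macrophage-like level of each of these libraries. The effect of leaving it out was not tested. The share of UMIs that came from the low-UMI profile, estimated from T/NK, B and neutrophil markers, was 76.6% in the macrophage-like cells of NEJ634 and 5.43% to 22.2% in those of the other 6 libraries. In NEJ634 neutrophil markers summed to 12595 CPM in these cells and 16395 CPM in the low-UMI barcodes. Hepatocyte markers, not used in the estimate, summed to 3522 and 8852 CPM, a smaller part, so the 76.6% depends on the markers used.

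Apoc2 and Apoa4 were also the 2 members that were higher in macrophage-like cells of each tumor library than of each healthy library, against 6.10% of genes. Apoc2 was at 142 to 406 CPM in the tumor libraries and 35.7 to 51.7 CPM in the healthy libraries. Apoa4 was at 21.2 CPM in NEJ634, 6.97 in NEJ687, 26.7 in NEJ709 and 274 in NEJ723, and at 0.850 to 2.68 CPM in the healthy libraries, where it rested on 1 to 6 UMIs. Markers of other cells were also higher in the macrophage-like cells of each tumor library, at a summed 4382 to 20405 CPM of erythroid markers against 1929 to 2361 CPM, and 537 to 12595 CPM of neutrophil markers against 63.3 to 325 CPM. Their part in these differences was not tested. Both genes lay below the low-UMI barcodes of their own library in all 7 libraries, at 0.137 to 0.431 times that level for Apoc2 and 0.0982 to 0.407 times for Apoa4. After subtraction of the low-UMI profile, 0 members were higher in each tumor library, and with only barcodes above the UMI limit 1 was. In NEJ634 the share subtracted (76.6%) was above the relative level of both genes, so subtraction set both to 0 there. Neither gene could then be higher in each tumor library, so the count after subtraction cannot decide whether they are.

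Within libraries, 8 of 10 members were at least 2-fold higher in hepatocyte-lineage than in macrophage-like cells in each of the 6 libraries with both, against 11.5% of 8340 genes. Apoe and Apoc1 were the exceptions. Apoe was 2.19-fold higher in macrophage-like cells in NEJ634, 4.82-fold in NEJ687 and 4.26-fold in NEJ709. In the healthy libraries it was 1.28-fold higher in hepatocyte-lineage cells in NEJ638, 1.05-fold in NEJ654 and 1.08-fold in NEJ677. The direction in NEJ654 and NEJ677 turned when only cells over 1000 UMIs with at most 10% mitochondrial UMIs were kept (hepatocyte-lineage over macrophage-like, 0.990 and 0.972) and when the unnamed cluster was added to the hepatocyte-lineage cells (0.796 and 0.407). Apoc1 was 7.43-fold, 3.87-fold and 2.94-fold higher in hepatocyte-lineage cells in NEJ638, NEJ654 and NEJ677, and between 0.911-fold and 1.10-fold the macrophage-like level in the 3 tumor libraries.

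**Figure D4:**
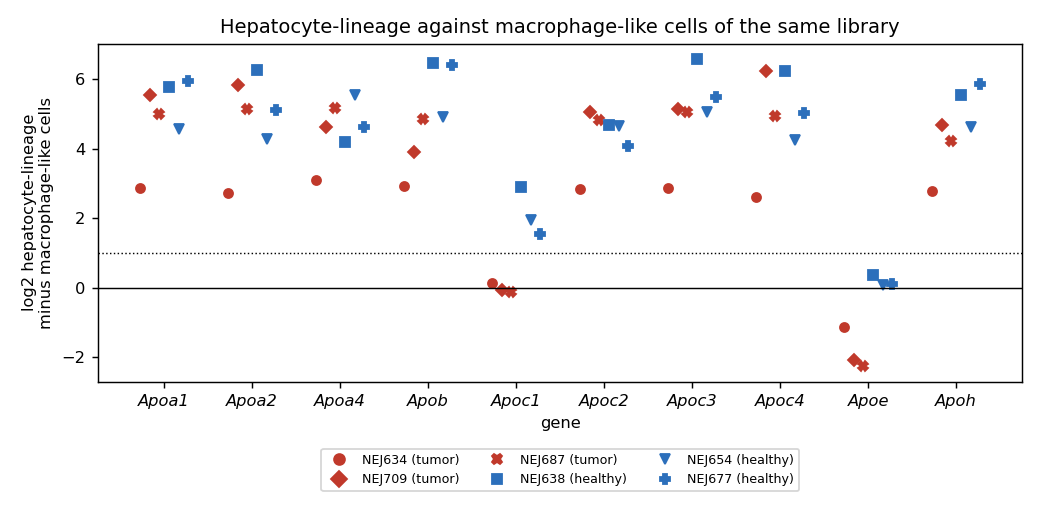
Log2 level in hepatocyte-lineage cells minus log2 level in macrophage-like cells of the same library, for each member and the 6 libraries with both classes; the solid line is 0 and the dotted line 1, a 2-fold difference. Apoe lies below 0 in the 3 tumor libraries (-1.13 to -2.27) and just above 0 in the 3 healthy libraries (0.07 to 0.36), and 8 members lie above 1 in all 6.

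Across the other classes, Apoe was the member most often above the low-UMI level of its own library. Counting intervals for Apoe lay above that level in hepatocyte-lineage cells of 6 of 6 libraries, epithelial-like cells of 2 of 2, macrophage-like cells of 7 of 7, mesenchymal-like cells of 3 of 5, monocyte-like cells of 3 of 7 and endothelial-like cells of 2 of 6. It did so in 0 of 7 libraries for T/NK-like cells, 0 of 6 for B-like cells, 0 of 7 for neutrophil-like cells and 0 of 5 for erythroid-like cells. Monocyte-like cells had a wider range than macrophage-like cells, with Apoe at 21732 CPM in NEJ723, 9439 in NEJ709, 5442 in NEJ634 and 2238 in NEJ687, against 1938 to 4446 CPM in the healthy libraries. Mesenchymal-like cells had 2735 CPM in NEJ634 and 7102 in NEJ723, and 3198, 10937 and 6448 CPM in NEJ638, NEJ654 and NEJ677. Apart from the hepatocyte-lineage and epithelial-like classes, the only other members with a counting interval wholly above that of the low-UMI level were Apoc1 in macrophage-like cells of 4 of 7 libraries, Apoc2 in monocyte-like cells of 3 of 7 and Apoc2 in neutrophil precursor-like cells of 1 of 4. Apoc2 in monocyte-like cells was at 209 to 796 CPM in the tumor libraries and 412 to 478 CPM in the healthy libraries.

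**Figure D5:**
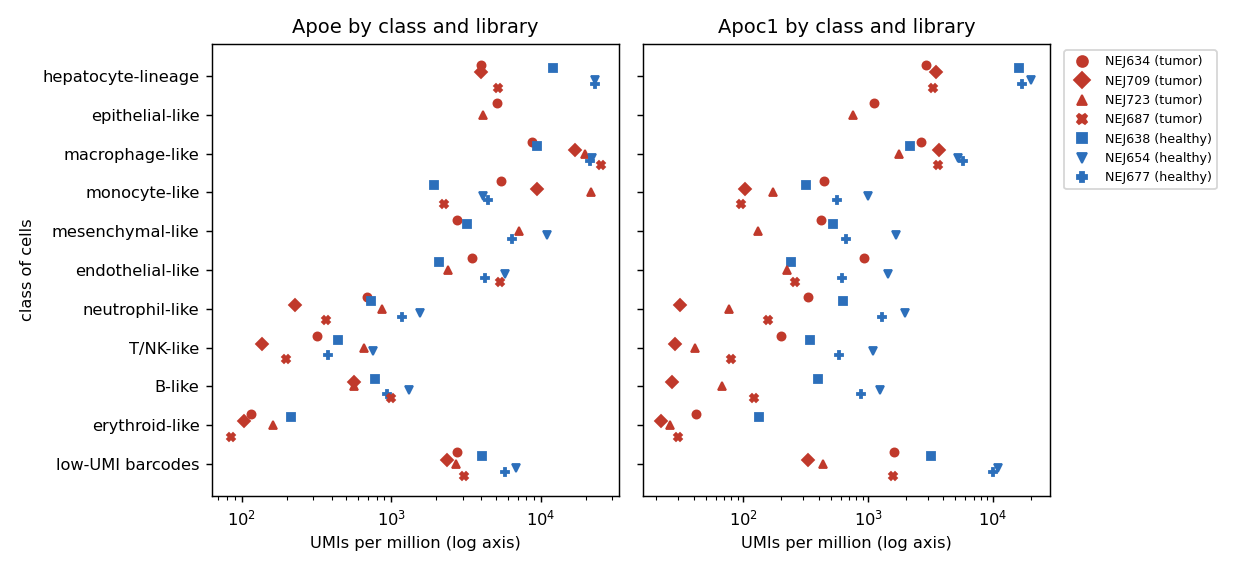
Level of Apoe (left) and Apoc1 (right) by class, in CPM on a log axis, with 1 point for each library that had at least 20 cells of the class, and the low-UMI barcodes in the last row. Apoe in macrophage-like cells lies above the low-UMI level of the same library in all 7 libraries, and both genes in T/NK-like, B-like, neutrophil-like and erythroid-like cells lie below that level.

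After thinning to 500 UMIs, an Apoe UMI was found in 91.2% to 99% of macrophage-like cells over the 7 libraries. It was found in 80.4%, 88.6% and 68.8% of hepatocyte-lineage cells of NEJ634, NEJ687 and NEJ709 and 97.0% to 99% of those of the healthy libraries. T/NK-like cells gave 8.60% to 36.3%. Without thinning, the shares were at least 97.8% in macrophage-like and at least 99.3% in hepatocyte-lineage cells, and 38.1% to 82.9% in T/NK-like cells. Every cell had more than 500 UMIs, so no cell was left out by thinning.

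The low-UMI barcodes, those ranked 45000 to 90000 by UMI count in each library, were taken as the background against which the cells were read. Whether they hold only free RNA was not tested, and in NEJ634 they ran from 210 to 952 UMIs, past the minimum of 500 UMIs set for cells. They held a median of 562 UMIs in NEJ634, 368 in NEJ723, 97 in NEJ687 and 13 in NEJ709, against 134 to 170 in the healthy libraries. In all, 6 members (Apoa1, Apoa2, Apoc1, Apoc3, Apoe and Apoh) were lower in each of the 4 tumor libraries than in each healthy library, against 5.85% of 6974 genes, and Apoc2 and Apoa4 were higher, against 16.9%. For Apoh the sets nearly met, with a highest tumor level of 283 CPM and a lowest healthy level of 285 CPM. Apoc3 was at 129, 171, 25.1 and 36.4 CPM in NEJ634, NEJ687, NEJ709 and NEJ723 and at 595, 2386 and 2237 CPM in NEJ638, NEJ654 and NEJ677. Apoa4 was at 52.1 CPM in NEJ634, 40.3 in NEJ687, 158 in NEJ709 and 738 in NEJ723, against 8.66 to 11.3 CPM in the healthy libraries, close to the limit of 10 CPM. Apoe was closer, at 2349 to 3053 CPM in the tumor libraries and 4036 to 6849 CPM in the healthy libraries. Haemoglobin transcripts made up 5.67% to 33.6% of these UMIs in the tumor libraries and 1.47% to 6.55% in the healthy libraries. In barcodes of 10 to 100 UMIs, 5 members were lower and 0 were higher in each tumor library. Without barcodes called as cells in another library, 5 were lower and 2 higher. For these alternatives the share of all genes is not given.

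Other genes of lipoprotein handling were read in the same hepatocyte-lineage cells, from lists chosen with earlier results of these data known. Of 15 other apolipoprotein and related genes compared, 9 were lower and 0 higher in each tumor library (median log2 difference -2.38). Over all 7571 genes the shares were 20.4% lower and 33.6% higher, with a median of 0.28, and the same background holds for the lists that follow. Clu, or clusterin, was at 184 to 227 CPM in the tumor libraries and 817 to 1594 CPM in the healthy libraries, and Apof, a regulator of lipid transfer, at 168 to 197 and 725 to 793 CPM. Apom, which binds to high-density lipoprotein, overlapped, at 362, 719 and 367 CPM in NEJ634, NEJ687 and NEJ709 and 691 to 1020 CPM in the healthy libraries. Of 11 genes of lipoprotein assembly, 6 were lower and 0 higher (median -0.59). P4hb, a subunit of the triglyceride transfer complex, was at 242 to 357 CPM and 698 to 891 CPM, while the lipid droplet gene Plin2 (211 to 318 and 247 to 299 CPM) and the export gene Mia2 (188 to 245 and 164 to 287 CPM) overlapped.

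Of 8 lipoprotein receptors and regulators compared, 6 were lower and 1 higher in each tumor library (median -1.20), against 20.4% and 33.6% of all genes. Lrp1, a receptor for Apoe-bearing remnants, was at 45.2 to 91.2 CPM in the tumor libraries and 216 to 400 CPM in the healthy libraries. Sdc1, a proteoglycan that captures remnants, was at 27.8 to 47.5 and 155 to 232 CPM, and Scarb1, the receptor for high-density lipoprotein, at 50.5 to 76.5 and 101 to 122 CPM. Of 9 lipases and remodelling factors, 5 were lower and 0 higher (median -1.49). The paraoxonase gene Pon1 was at 1.74 to 7.65 CPM in the tumor libraries and 502 to 601 CPM in the healthy libraries. Pon1 was also on the list of other apolipoprotein and related genes and was counted as lower in both lists. Lpl, the lipase itself, overlapped, at 151 to 217 and 69.3 to 468 CPM. Of 12 genes of cholesterol efflux and synthesis, 7 were lower and 0 higher (median -1.17), among them Hmgcs1 (68.7 to 140 and 247 to 729 CPM) and Insig1 (67.1 to 128 and 190 to 400 CPM).

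Of 18 transcription factors known to act on apolipoprotein promoters, 10 were lower and 0 higher in each tumor library (median -0.83), against 20.4% and 33.6% of all genes. Cebpa was at 59.2 to 99.6 CPM in the tumor libraries and 161 to 272 CPM in the healthy libraries, and Creb3l3 at 165 to 197 and 239 to 382 CPM. Cebpb overlapped, at 244 to 368 and 128 to 517 CPM. In macrophage-like cells Nr1h3, which encodes the oxysterol receptor LXR alpha, overlapped, at 103 to 330 CPM in the tumor libraries and 295 to 435 CPM in the healthy libraries. Of the other listed genes highest in those cells, Pltp (204 to 415 and 571 to 771 CPM), Soat1 (77.0 to 193 and 229 to 283 CPM) and Mia2 (95.9 to 133 and 136 to 167 CPM) were lower in each tumor library. Lpl, Lrp1, Msr1, Cd36, Abca1, Abcg1, Plin2, P4hb, Cebpb, Angptl4, Clu, Apom and Apobr overlapped.

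The genes whose pattern was most like each member were read over 79 sums of 1 class in 1 library, with 8713 genes compared, as a description of sums that share libraries. For Apoa1, Apoa2, Apob, Apoc4 and Apoh the closest genes were plasma protein and metabolic genes of hepatocytes, such as Ahsg with Apoa1 (Pearson r 0.98), Ttr with Apoa2 (0.98), Gc with Apob (0.96), Gnmt with Apoc4 (0.97) and Apom with Apoh (0.95). Apoc3 was closest to Cdo1 (0.94), Bhmt (0.94) and Fabp1 (0.94), and Apoc1 to Fabp1 (0.86). Apoe was closest to Cd302 (0.91), Itgb5 (0.85) and Selenop (0.84). Apoa4 was closest to Spink1 (0.86), Krt8 (0.85) and Krt18 (0.84), and Apoc2 to Timd2 (0.83), Tcea3 (0.83) and Igfbp1 (0.82). Among the members themselves, the correlation was 0.73 between Apoa4 and Apoc2, 0.08 between Apoa4 and its neighbour Apoc3, and 0.64 between Apoc2 and its neighbour Apoc4. The value of 0.73 was not particular to that pair. Over the other members Apoc2 ran from 0.30 with Apoc3 to 0.74 with Apoh, with 0.70 for both Apoa1 and Apob. Apoa4 had 0.63 with both Apoa1 and Apoh.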

How the data were processed

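Droplet-based 3' single-cell RNA was measured in 7 libraries of mouse liver tissue. The deposited values are raw UMI counts per gene and barcode for all barcodes, with no normalization. The submitters' processing notes name Cell Ranger 6.0, the study's methods add that introns were counted, and the matrix headers give Cell Ranger 4, so which run made the files is not settled. The genome build is not given in the sources used here, and coordinates are those of GENCODE M21. Gene overlaps can move reads between genes where strand or annotation does not separate them.

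A barcode was called a cell if its UMIs passed a UMI limit, which was the UMIs at percentile 99 among the 3000 largest barcodes divided by 10. Further barcodes with 500 UMIs or more were called if their profile differed from the low-UMI profile (10000 draws, adjusted p of 0.01). This test covered at most 20000 barcodes per library, a number met by NEJ634, NEJ709 and NEJ723, where some cells may be missed. Called cells needed more than 500 UMIs, with no more than 20% from mitochondrial genes. Doublets were scored by simulation after Scrublet and the top scores removed at 0.8% per 1000 cells. Leiden clustering at resolution 1 used 2000 variable genes, 40 components and 15 neighbours, without genes named Apo. Clusters were named from 155 markers of 16 classes where the mean log2 fold was at least 1.5, the lead over the next class at least 1 and at least 3 markers were up 2-fold. These limits were set with the data seen, and 12 of 36 clusters stayed unnamed.

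Levels are UMIs summed over the cells of a class in a library, per 1000000 UMIs (CPM). Log2 differences, folds of medians and the fold between clusters of NEJ634 used a pseudocount of 1 CPM. Genes with a mean of at least 10 CPM formed the background counts. The members, lists and markers were chosen with earlier results of these data known. The genes named were the members, the 3 genes of each list highest in hepatocyte-lineage and in macrophage-like cells, and the 3 genes most correlated with each member on log2(CPM + 10). Some genes that this rule names are not reported here. The labels give no groups and no replicates, and an exact permutation test of 4 against 3 libraries was not run. Simulated counts were used to test the scripts. The tools were scanpy 1.11.5, leidenalg 0.10.2, scikit-learn 1.9.0, scipy 1.17.1, numpy 2.4.6, pandas 2.3.3 and matplotlib 3.10.9 in Python 3.11.15. Promoter sequences are from RefSeq.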

Additional observations from a re-analysis of the deposited data

Results flagged for a closer look

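The difference in Apoe between hepatocyte-lineage and macrophage-like cells went opposite ways in the sets, which was not tested. On the log2 scale, hepatocyte-lineage minus macrophage-like cells, the tumor values were -2.27 (NEJ687), -2.09 (NEJ709) and -1.13 (NEJ634). The healthy values were 0.069 (NEJ654), 0.12 (NEJ677) and 0.36 (NEJ638). The direction turned in NEJ654 and NEJ677 over 1000 UMIs (hepatocyte-lineage over macrophage-like, 0.990 and 0.972) and with a naming limit of 1 (0.796 and 0.407).

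A single library stood far from the other tumor libraries for 3 of 20 sets of 4 values. Chance alone would mark about 1 set in 20 if the sets were independent. These sets share genes and libraries, so the number marked cannot be read against that rate. NEJ723 had 274 CPM of Apoa4 in macrophage-like cells and 738 CPM in low-UMI barcodes. NEJ634 had 48.4 CPM of Apoc3 in macrophage-like cells, the cells with the largest estimated share of the low-UMI profile (76.6%, an estimate that depends on the markers used).

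Barcodes over 500 UMIs that were not called as cells also held Apoe. Its level there was 2917 CPM in NEJ634, 2166 in NEJ709, 2787 in NEJ723, 2803 in NEJ687, 7944 in NEJ654 and 4700 in NEJ677, next to 2735, 2349, 2727, 3053, 6849 and 5769 CPM in the low-UMI barcodes of the same libraries. No value is given for NEJ638. The low-UMI barcodes of NEJ634 ran up to 952 UMIs, so some barcodes there can be in both groups. In NEJ634, NEJ709 and NEJ723 the limit of 20000 was met, so uncalled barcodes there can include some that were never tested.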

How the results depend on the processing

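No paired analysis was possible because the labels give no groups and no replicate numbers. In hepatocyte-lineage cells each member kept its direction in the 18 alternatives with values of their own, 180 values in all, of which 87 lay outside the counting interval of the reported value. Leaving out a library cannot turn a direction where the sets do not overlap, NEJ723 had no level to leave out, and a minimum of 50 cells is the same as leaving out NEJ709. The count of lower members was 8 in each alternative except 7 with classes set per cell from marker UMIs, and 2 were higher in each. The count of members at least 2-fold higher in hepatocyte-lineage than in macrophage-like cells was 8 in each alternative run. In macrophage-like cells, with only barcodes above the UMI limit, 3 members were lower and 1 was higher, and with cells weighted equally 1 was lower. Leaving out single libraries moved the count of lower members between 0 and 2. With the low-UMI profile subtracted 0 were higher, an outcome fixed for Apoc2 and Apoa4 by the share subtracted in NEJ634. In low-UMI barcodes of 10 to 100 UMIs 0 members were higher, and the count of lower members was 5 to 8 over the alternatives run there. Shares of all genes are given for the reported setting only, so counts in the alternatives have no background beside them. The 3 libraries with more Apoe in macrophage-like cells became 5 over 1000 UMIs and at most 10% mitochondrial, 6 with classes set per cell, and 5 with a mean log2 fold of 1 for naming, an alternative chosen after seeing the data. Classes set per cell add NEJ723 to the libraries with both classes. The causes of these moves were not tested. Precision is limited by few cells: 32 hepatocyte-lineage cells in NEJ709, and 1 to 6 UMIs of Apoa4 in healthy macrophage-like cells.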
